A study of Mus musculus with 10 samples.

Results

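The vesicular glutamate transporter genes Slc17a6, Slc17a7 and Slc17a8 were examined for open chromatin in nuclei of the mouse ventral tegmental area, a midbrain region that holds dopamine, GABA and glutamate neurons. The 3 genes are the listed members. A peak was counted for a gene when it overlapped the gene or 20 kb on either side of it. Of 202366 peaks in 10 libraries, 26 lay in the windows of these genes, and they formed 12 of the 74593 regions that overlapping peaks make when merged over all libraries.

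The assay was bulk ATAC-seq: a transposase, Tn5, cuts and tags DNA where it is free of nucleosomes, and the tagged pieces are sequenced. All mice were adults (over postnatal day 60) of the genotype ArcCreERT2 x Sun1/+. The recombinase is driven by Arc, an immediate early gene, and the Sun1 nuclear envelope tag let marked nuclei be drawn out magnetically. Libraries are labelled activated or non-activated. The time of tamoxifen treatment, which fixes when cells could be marked, is not stated in the labels. The groups were 3 stressed activated (early-life stress), 2 standard-reared activated, 3 stressed non-activated and 2 standard-reared non-activated libraries. Each came from a single animal, 6 animals in all. The 3 stressed animals and 1 standard-reared animal gave a library of each class. Only females gave standard-reared non-activated libraries, and the remaining groups had males and females. The nuclei were not sorted by cell type, so fewer open nuclei and less accessibility per nucleus cannot be told apart. The labelled tissue was not checked against marker genes, which would need a gene annotation of mm39.

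Vesicular glutamate transporters load glutamate into synaptic vesicles, and a neuron that carries one of them can release glutamate as a transmitter. VGLUT2, the product of Slc17a6, is the main form in midbrain and other subcortical glutamate neurons, some ventral tegmental dopamine neurons included. VGLUT1, from Slc17a7, is the main form of cortical and hippocampal neurons. VGLUT3, from Slc17a8, is found in scattered cells such as raphe serotonin neurons, striatal cholinergic interneurons and inner hair cells.

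Gene starts in mm39, the build of the peak lists, were known here only to the nearest 10 kb. Gene lengths came from RefSeq's GRCm38.p6 gene table and were rounded to 10 kb, so the windows are approximate. They ran from 51.25 to 51.34 Mb on chromosome 7 for Slc17a6, from 44.79 to 44.84 Mb on chromosome 7 for Slc17a7, and from 89.39 to 89.48 Mb on chromosome 10 for Slc17a8. Slc17a6 and Slc17a7 are read from the plus strand and Slc17a8 from the minus strand. No exon, intron or promoter could be assigned to a peak. A peak within 5 kb of a gene's stated 5' end is described as lying at the start.

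The promoter sequences of the 3 genes are shown because a few peaks lay at the starts of Slc17a6 and Slc17a7 and none at that of Slc17a8. They are RefSeq sequences of build GRCm38.p6 and run from 250 bases before to 50 bases after the annotated start. All 3 genes matched the table, which lists 2 starts each for Slc17a6 and Slc17a8 and 1 for Slc17a7. The start at the 5' end of the gene was taken. The positions in that build are chr7:51621580-51621879 on the plus strand for Slc17a6, chr7:45163671-45163970 on the plus strand for Slc17a7 and chr10:89621200-89621499 on the minus strand for Slc17a8. They cannot be set against the mm39 positions of the peaks. Capitals mark CG dinucleotides, which are dense in the promoters of many widely used genes.
Slc17a6: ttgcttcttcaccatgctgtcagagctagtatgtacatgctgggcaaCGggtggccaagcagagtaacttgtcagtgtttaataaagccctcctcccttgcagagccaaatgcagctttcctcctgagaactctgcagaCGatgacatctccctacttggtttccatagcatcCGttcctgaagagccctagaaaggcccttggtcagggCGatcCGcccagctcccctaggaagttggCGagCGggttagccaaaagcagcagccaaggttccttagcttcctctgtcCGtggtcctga
Slc17a7: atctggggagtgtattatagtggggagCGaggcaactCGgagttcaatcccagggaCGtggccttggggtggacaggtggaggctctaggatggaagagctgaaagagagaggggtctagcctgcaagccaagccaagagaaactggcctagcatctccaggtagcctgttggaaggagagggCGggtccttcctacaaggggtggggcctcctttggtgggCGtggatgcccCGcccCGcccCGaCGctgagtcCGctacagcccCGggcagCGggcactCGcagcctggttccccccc
Slc17a8: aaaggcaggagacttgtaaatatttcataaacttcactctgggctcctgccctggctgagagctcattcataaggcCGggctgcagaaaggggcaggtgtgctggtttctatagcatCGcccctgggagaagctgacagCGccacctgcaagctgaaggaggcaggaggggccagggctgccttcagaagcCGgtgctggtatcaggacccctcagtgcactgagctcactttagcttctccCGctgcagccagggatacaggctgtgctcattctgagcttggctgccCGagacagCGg

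Slc17a7 had the densest promoter of the 3, with 13 CG dinucleotides and 63.7% G and C. Slc17a6 had 8 and 53.7%, and Slc17a8 had 7 and 58.0%. Over the 32851 promoters of the table the median was 7 CG dinucleotides, and 37.9% held at least as many as Slc17a7. The GC box letters GGGCGG, searched on both strands, occurred 3 times in the Slc17a7 promoter, 1 time in that of Slc17a6 and 0 times in that of Slc17a8, and 35.7% of all promoters held them. The cyclic AMP response element letters TGACGTCA, held by 1.79% of all promoters, and the AP-1 letters TGANTCA, held by 7.81%, were found in none of the 3. These matches describe the letters only.

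The lists differed in length and depth, which sets what can be called. They held 7076 to 50786 peaks. Depth, solved from the fold and p of the peaks and divided by the shortest peak width, ranged in activated libraries from 5.30 to 10.9 fragments per kb (of effective genome). It was 6.52 in stressed non-activated replicate 1, the longest list, and 0.309 to 1.45 in the other 4 non-activated libraries. The fewest fragments in a called peak were 6 or 7 for these 6 libraries, and 2 to 4 for the shallow 4. A window without a peak is therefore a window without a call at that depth. Because fold depends on depth, each peak was placed by the percentile of its fold within its own list. A percentile in turn depends on how many weak peaks the list holds. The shortest peak of a list, taken as its fragment length, also differed between the classes. It was 134 to 161 bp in activated libraries and 150 bp in stressed non-activated replicate 1, against 210 to 250 bp in the other 4 non-activated libraries. The part of fragment length in the comparisons was not tested.

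**Figure D1:**
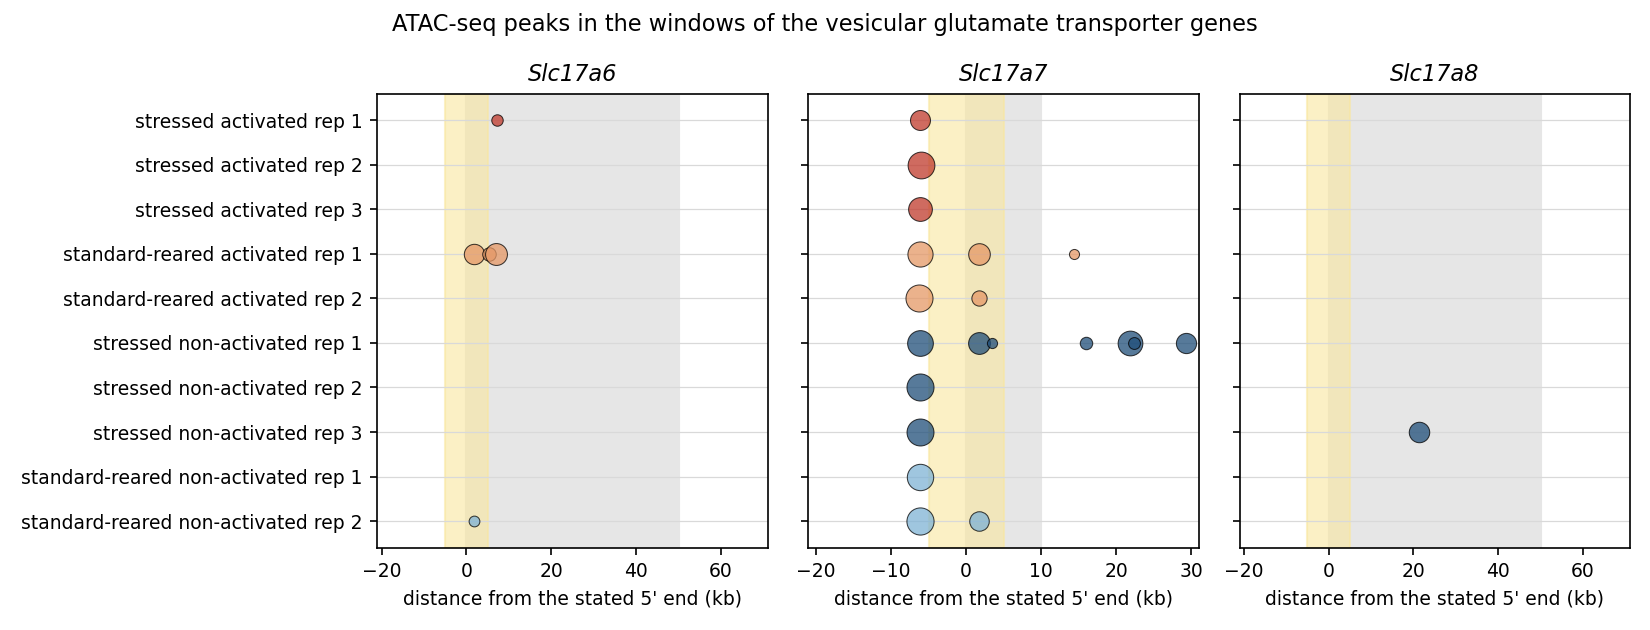
Peaks in the window of each gene, 1 row per library, with the stressed activated libraries at the top. The x axis is the distance in kb from the stated 5' end along the direction of transcription, grey marks the gene, yellow marks the 5 kb on each side of the stated 5' end, and the area of a circle grows with the percentile of its fold in that library. The region 6.1 kb before the stated start of Slc17a7 holds a peak in all 10 libraries, and the window of Slc17a8 holds 1 peak in all.

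Slc17a6, the transporter most tied to midbrain glutamate neurons, had peaks in a minority of libraries, none with a -log10 q above 3.88. Its window held 5 peaks in 3 of the 10 libraries, in 2 of 5 activated and 1 of 5 non-activated libraries. Standard-reared activated replicate 1 had 3 peaks, and stressed activated replicate 1 and standard-reared non-activated replicate 2 had 1 each. The window was empty in stressed non-activated replicate 1, the longest list, in which 53.8% of 90 kb tiles over all chromosomes held a peak.

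The peaks formed 3 regions. The first, on chromosome 7 (51271651 to 51271967, mm39), lay at the start, 1.8 kb past the stated 5' end. It was called in standard-reared activated replicate 1, with 10 fragments, a fold of 4.13 and percentile 50.3. It was also called in standard-reared non-activated replicate 2, with 4 fragments, a fold of 4.04 and percentile 7.26. The second region (51275139 to 51275376) was called in standard-reared activated replicate 1 alone, with 9 fragments at percentile 17.1. The third (51276800 to 51277282) was called in stressed activated replicate 1, with 7 fragments at percentile 9.55, and in standard-reared activated replicate 1, with 11 fragments at percentile 59.7. The 7 fragments of stressed activated replicate 1 equal the fewest of any peak in that list. Over all 5 Slc17a6 peaks the -log10 q ran from 1.42 to 3.88.

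No region called in at least 5 libraries lay inside the Slc17a6 window. The nearest on the lower side was 1821 kb from the window, and the nearest on the higher side 171 kb, each called in all 10 libraries. The gene table lists Ano5, of the anoctamin family, before Slc17a6 and Fancf, a Fanconi anaemia gene, after it. Of the 30230 tiles of 90 kb that cover all chromosomes, 38.7% had a peak in at least 3 libraries, as many as this window, and 34.4% had none in any library.

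Slc17a7 had the most peaks, 20 over the 10 libraries, and the peak of highest fold lay in every library in 1 region before the gene. That region (chromosome 7, 44803460 to 44804310, mm39) is 851 bp wide and centred 6.1 kb before the stated start. The bases shared by its peaks in all 10 libraries run from 44803719 to 44804002, 284 bp. On this side of Slc17a7 the gene table lists Pih1d1, which encodes a subunit of the R2TP chaperone complex, and then Aldh16a1. The region cannot be assigned to Slc17a7 rather than to one of these neighbours. Among all merged regions 7.10% were called in all 10 libraries, against 1 of the 12 regions of these 3 genes.

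The fold of this region was 4.64, 9.61 and 6.40 in stressed activated replicates 1 to 3. In standard-reared activated replicates 1 and 2 it was 6.12 and 10.9. In stressed non-activated replicates 1 to 3 it was 11.6, 12.5 and 10.9, and in standard-reared non-activated replicates 1 and 2 it was 9.21 and 15.1. The 3 stressed activated libraries lay below the 3 stressed non-activated ones, and the standard-reared classes overlapped. Of the 25437 regions called in at least 2 libraries, the fold separated the stressed classes in this direction in 8.89% and in the other in 0.275%. The median fold of the whole list was also lower in the stressed activated libraries, at 4.67 to 5.14, than in the stressed non-activated ones, at 5.93 to 6.32.

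The summit held 23, 40 and 22 fragments in the stressed activated libraries and 41 and 43 in the standard-reared activated ones. It held 61, 24 and 16 in the stressed non-activated libraries and 16 and 37 in the standard-reared non-activated ones. The local background at the peak was above the genome-wide rate in every library, 2.61 to 3.78 times in activated and 2.48 to 7.45 times in non-activated libraries. The fold is taken over this local background, with 1 added to both the fragments and the background. The background was 2.59 to 5.86 fragments in activated and 0.554 to 4.33 in non-activated libraries, so the added 1 weighs unequally. An alternative added after seeing the data ranked peaks by fragments over the genome-wide rate instead, without the added 1. The activated minus non-activated difference in percentile was then -0.55 in all mice, against -14.6 by fold, and -7.36 against -21.1 in stressed mice. The parts of the local background and of the added 1 were not tested separately.

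As percentiles of the whole lists, the values of the classes overlapped. They were 48.1, 93.8 and 72.0 in stressed activated replicates 1 to 3, and 81.7 and 95.9 in standard-reared activated replicates 1 and 2. They were 86.0, 95.9 and 95.2 in the stressed non-activated libraries and 90.6 and 96.9 in the standard-reared non-activated ones. Stressed activated replicate 1 was lowest, and the activated libraries spread more widely than the non-activated ones.

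**Figure D2:**
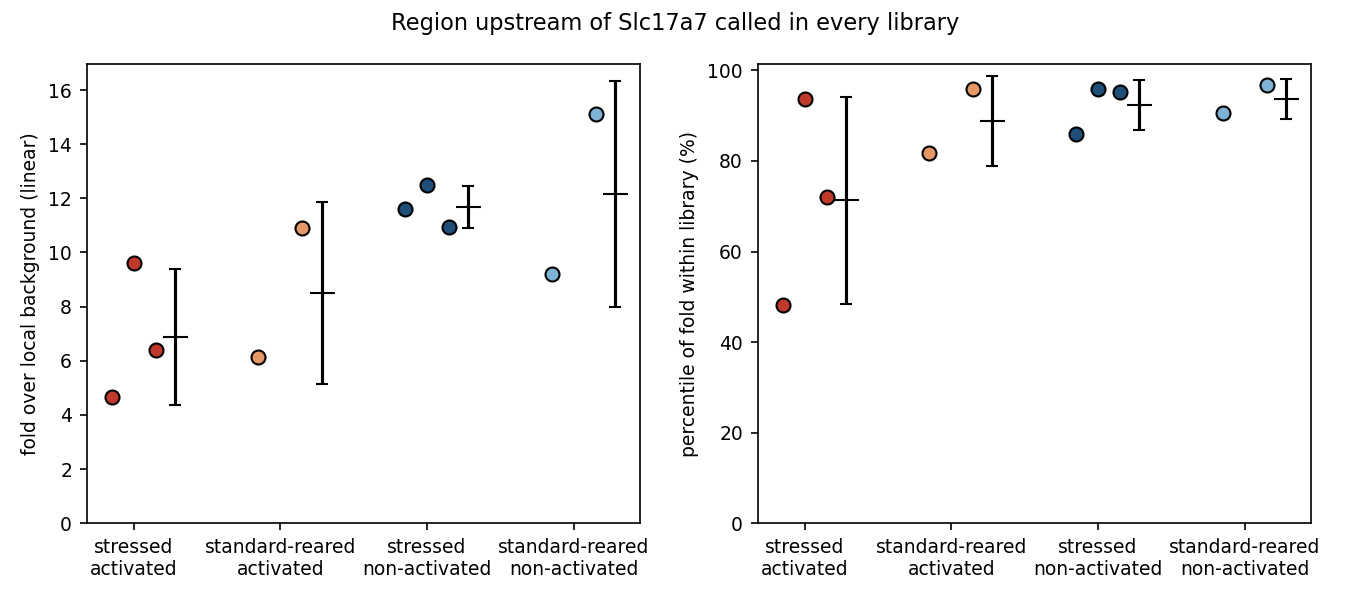
Values of the region before Slc17a7 in each library, with the fold over local background on the left (linear axis) and the percentile of that fold among the library's own peaks on the right. Points are libraries, and the bar beside them is the mean with its SD. The stressed activated libraries reach percentiles of 48.1 to 93.8 and the stressed non-activated ones 86.0 to 95.9.

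The second region of Slc17a7 (44811413 to 44811935, chromosome 7) lay at the start, 1.7 kb past the stated 5' end, and was called in 4 libraries. In standard-reared activated replicates 1 and 2 it held 26 and 13 fragments, at percentiles 58.0 and 24.2. In stressed non-activated replicate 1 it held 39 fragments at percentile 59.1, and in standard-reared non-activated replicate 2 it held 11 at percentile 45.4. No stressed activated library had a call there. Their lists held 15128 to 19710 peaks, against 39783 and 17283 in standard-reared activated replicates 1 and 2, and the part of list length and depth was not tested.

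The other 6 regions of the Slc17a7 window were each called in 1 library. Of these, 5 came from stressed non-activated replicate 1 and 1 from standard-reared activated replicate 1, the longest lists. The strongest, at 44831628 to 44832027, held 44 fragments at percentile 78.6 in stressed non-activated replicate 1. It lay 21.8 kb past the stated start, on the side where the table lists Gfy and Pth2. Another, at 44813306 to 44813508, lay at the start, 3.4 kb past the stated 5' end. It held 20 fragments at percentile 5.50 in stressed non-activated replicate 1. The rest lay 14.4 to 29.3 kb past the stated start and held 15 to 21 fragments, at percentiles 5.19 to 49.5. Over the 3 genes, 8 of 12 regions (66.7%) were called in a single library, close to the 65.9% of all merged regions. Of 54407 tiles of 50 kb, the length of this window, 9.04% had a peak in all 10 libraries.

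Slc17a8 had 1 peak. It was called in stressed non-activated replicate 3, the shallowest library (0.309 fragments per kb). The peak (chromosome 10, 89438562 to 89438804, mm39) lay inside the stated gene, 21.3 kb past its 5' end. It held 6 fragments against a background of 0.169, which with 1 added to each is a fold of 5.99, at percentile 50.9. The window was empty in the other 9 libraries, which include the 2 longest lists. Of the 90 kb tiles, 50.7% had a peak in at most 1 library. The tiles run over whole chromosomes without regard to genes and count a peak by its midpoint, so they are not matched to gene windows. The nearest regions called in at least 5 libraries lay 110 kb below and 41.6 kb above the window. The table lists Nr1h4, a bile acid receptor gene, and Scyl2 as the neighbours of Slc17a8.

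**Figure D3:**
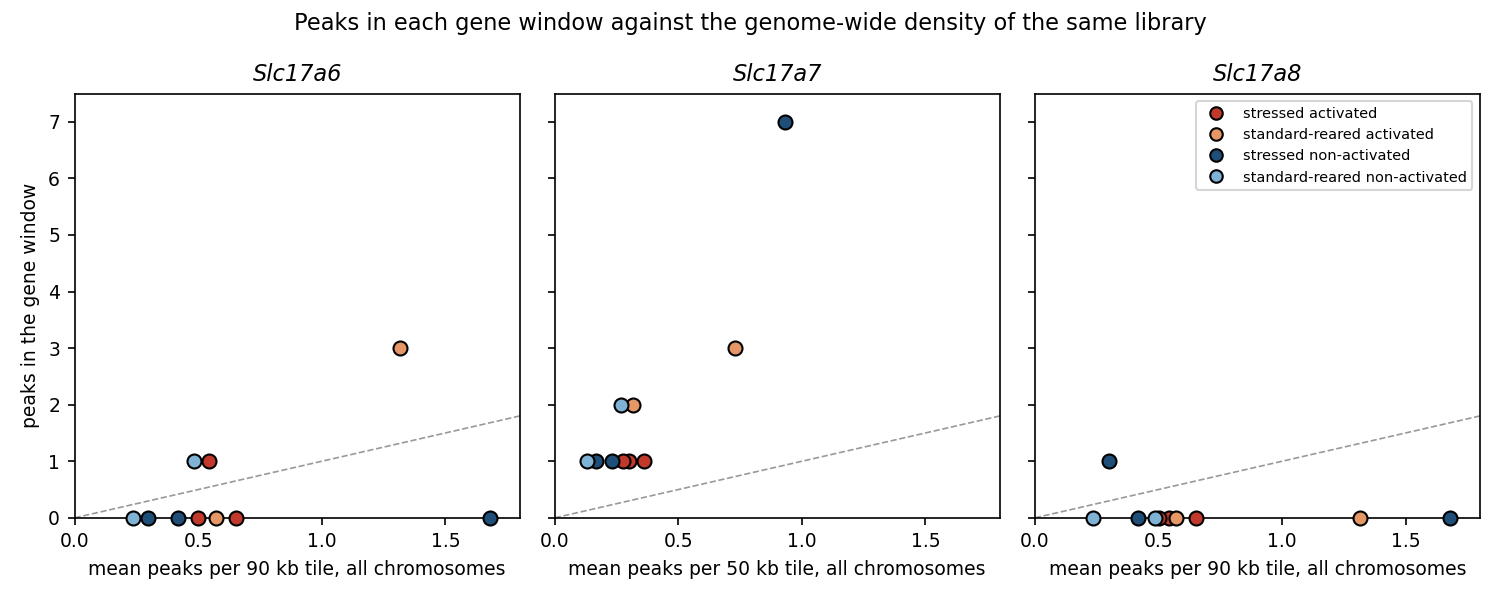
Number of peaks in each gene window (y axis) against the mean number of peaks per tile of the same length over all chromosomes in the same library (x axis). Each point is 1 library, points can overlap, and the dashed line marks equal values. All 10 libraries lie above the line for Slc17a7, 3 of 10 for Slc17a6 and 1 of 10 for Slc17a8, the same libraries that have a peak in each window. The 50 kb tile means are 0.130 to 0.933, so any call in the Slc17a7 window lies above the line.

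The order of the genes by their strongest peak was the same in both classes only at the top. Slc17a7 averaged percentile 78.3 ± 19.4 in activated and 92.9 ± 4.56 in non-activated libraries (SD, n = 5 each), with a library without a peak counted as 0. Slc17a6 averaged 13.8 ± 26.0 in activated and 1.45 ± 3.25 in non-activated libraries. For Slc17a8 the mean was 0 in activated and 10.2 ± 22.8 in non-activated libraries. Slc17a7 was above the other genes in every library, each time through the region before the gene, which cannot be assigned to Slc17a7. Its second region, at the start, was called in 4 libraries. In standard-reared activated replicate 1 that region was at percentile 58.0, against 59.7 for Slc17a6. It was above Slc17a6 in the other libraries where it was called. In stressed activated replicate 1 it had no call, and Slc17a6 was at 9.55. Slc17a6 and Slc17a8 were both at 0 in 6 of the 10, so their order is within the spread.

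The series title concerns cells activated by early-life stress, so activated and non-activated nuclei were compared first. No gene differed beyond the spread of the libraries. For Slc17a7 the activated mean was lower by 14.6 percentile points (difference -14.6; exact permutation test, two-sided, p = 0.111, and adjusted p = 1 across 15 tests). For Slc17a6 the difference was 12.4 (exact permutation p = 0.444) and for Slc17a8 it was -10.2 (exact permutation p = 1), each with an adjusted p of 1. With 5 against 5 libraries the smallest possible p is 0.00794. Slc17a6, with peaks in only 3 libraries, cannot reach it. Slc17a8 has a peak in 1 library, so its p is the same whichever class holds that peak, and its test could not show a difference. Slc17a7 could reach 0.00794, but that p alone would not pass adjustment over 15 tests, so no gene could be called. The Slc17a7 difference ranged over the alternative settings from -31.9 in lists shortened to equal length (exact permutation p = 0.175) to -0.55 when peaks were ranked by fragments over the genome-wide rate (exact permutation p = 0.952). It was -29.1 for peaks with a -log10 q of at least 5 and -7.13 when ranked by q. Without the flanks it was -4.45, a value of the second Slc17a7 region and not of the region before the gene.

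Within stressed mice the Slc17a7 percentiles averaged 71.3 ± 22.8 in activated and 92.4 ± 5.55 in non-activated libraries (SD, n = 3 each; difference -21.1, exact permutation p = 0.2, adjusted p = 1). It was -37.4 at a -log10 q of at least 5 and -7.36 when ranked by fragments. All 3 stressed animals had the lower percentile in their activated library, with differences of -37.9, -2.11 and -23.2 points in replicates 1 to 3. With 3 animals the exact sign-flip p was 0.25, the smallest possible. How many of all regions had the same direction in all 3 animals was not counted. The standard-reared animal with both libraries had 95.9 in its activated and 90.6 in its non-activated library. Slc17a6 averaged 3.18 ± 5.51 in stressed activated libraries and was at 0 in all 3 stressed non-activated ones. Slc17a8 was at 0 in the stressed activated libraries and averaged 17.0 ± 29.4 in the non-activated ones (exact permutation p = 1 for either gene). With 3 against 3 the smallest possible p is 0.1. In stressed mice Slc17a6 and Slc17a8 each had a peak in 1 library, which fixes their p in advance, so these tests could not show a difference.

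In standard-reared mice Slc17a7 averaged 88.8 ± 10.02 in activated and 93.8 ± 4.403 in non-activated libraries (SD, n = 2 each; difference -4.94, exact permutation p = 0.667). Slc17a6 averaged 29.8 ± 42.2 in activated and 3.63 ± 5.13 in non-activated libraries (exact permutation p = 1). The activated mean rested on replicate 1, and without it the difference was -3.63 instead of 26.2. The Slc17a7 difference was -40.2 in lists shortened to equal length (exact permutation p = 0.333) and -16.6 at a -log10 q of at least 5, and it reversed to 2.87 when ranked by q. Slc17a8 had no peak in any of these 4 libraries. The smallest possible p is 0.333 with 2 against 2.

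**Figure D4:**
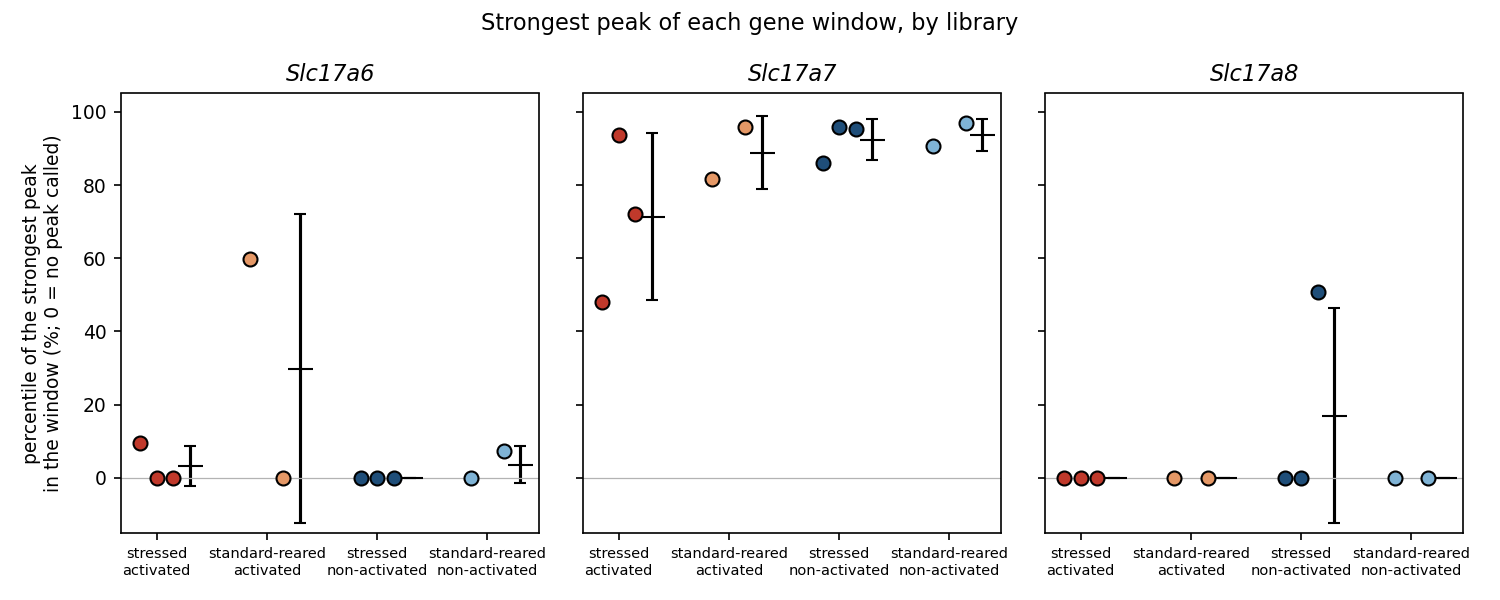
Percentile of the strongest peak in the window of each gene, by group, with stressed activated libraries on the left. Points are libraries, a value of 0 stands for no called peak, and the bar beside them is the mean with its SD (n = 3 for stressed and 2 for standard-reared groups). Slc17a7, through the region before the gene, lies at 48.1 or above in every library, whereas Slc17a6 has a peak in 3 libraries and Slc17a8 in 1.

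Rearing was compared within each class. In activated nuclei Slc17a7 averaged 71.3 ± 22.8 in stressed and 88.8 ± 10.02 in standard-reared libraries (SD, n = 3 and 2; difference -17.5, exact permutation p = 0.4). Slc17a6 averaged 3.18 ± 5.51 in stressed and 29.8 ± 42.2 in standard-reared libraries (exact permutation p = 0.4), and without standard-reared activated replicate 1 its difference was 3.18 instead of -26.7. In non-activated nuclei Slc17a7 averaged 92.4 ± 5.55 in stressed and 93.8 ± 4.403 in standard-reared libraries (difference -1.38, exact permutation p = 0.8). That difference was -22.7 in lists shortened to equal length and reversed to 1.90 when ranked by q. Slc17a6 had no peak in stressed non-activated libraries and averaged 3.63 ± 5.13 in standard-reared ones (exact permutation p = 0.4). Slc17a8 averaged 17.0 ± 29.4 in stressed and 0 in standard-reared non-activated libraries (exact permutation p = 1). All adjusted p were 1, and 3 against 2 cannot go below 0.1.

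The same percentiles were tested for each of the 25437 merged regions called in at least 2 libraries, which include 2 regions of Slc17a6 and 2 of Slc17a7. In activated against non-activated nuclei, 0 regions passed an adjusted p of 0.05 by the exact permutation test, with 1790 at an unadjusted p under 0.05 and 2 called by limma. The smallest possible p of the exact permutation test, 0.00794, was reached by 260 regions, and the smallest adjusted p was 0.677. Far more regions would have to lie at or near that p for any to pass. The 0 calls therefore do not show that no region differed. The unadjusted calls were 5.15% of regions higher in activated and 1.89% higher in non-activated nuclei. None of the 4 member regions was among them. The median difference over all regions was 5.97 points towards activated nuclei, with 0 for each library without a call. For the region before Slc17a7 the difference was -14.6 (exact permutation p = 0.111, adjusted p = 0.762 over all regions). That region was called in all 10 libraries and holds no such zeros, so its difference and the median are not alike. The third Slc17a6 region had a difference of 13.8 (exact permutation p = 0.444, adjusted p = 0.939), its first 8.62 (exact permutation p = 1, adjusted p = 1) and the second Slc17a7 region -4.45 (exact permutation p = 0.841, adjusted p = 1).

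The groups of a comparison did not overlap in 1 instance among these 4 regions. The second Slc17a7 region averaged percentile 0 in stressed activated and 41.1 ± 23.9 in standard-reared activated libraries (SD, n = 3 and 2; exact permutation p = 0.1, the smallest possible; adjusted p = 0.740). Of all regions 17.9% separated these groups in that direction and 1.73% in the other, so this pattern was common. In the remaining comparisons the percentiles of none of the 4 regions separated the groups. Over all regions 0.393% did so with higher values in activated and 0.629% in non-activated nuclei of all mice. The shares were 1.18% and 3.28% in stressed mice and 34.4% and 2.94% in standard-reared mice. In non-activated nuclei 3.73% were higher in stressed and 0.609% in standard-reared mice.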

How the data were processed

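The authors deposited 1 peak list per library. The build was mm39, per the submitters' processing notes, and the tools were MACS2 2.2.9.1, SAMtools 1.13, Bowtie2 2.4.5, fastp 0.23.4 and R 4.4.2. No source used here states the calling settings or any removal of duplicates, which can change which peaks exist. In the lists deposited by the authors, fold is a linear ratio over local background, p and q are given as -log10 values, and the score is 10 times -log10 q. These are the authors' values, used to rank or describe peaks within 1 list. The lowest -log10 q was 1.30 to 1.34.

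Peaks repeated for several summits were counted once, on chromosomes 1 to 19, X and Y. Overlap of 1 bp counted. Fragments and background at the summit were solved from fold and p with a pseudocount of 1, to a relative tolerance of 1e-04, which all peaks (100%) met. The solver and the tests were checked on simulated data.

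For 3 genes and 5 comparisons, the percentile of the strongest peak (0 if none) was tested by two-sided exact permutation with Benjamini-Hochberg adjustment over 15 tests. By the rule for named items, every region of the windows is described, some of those called in 1 library by ranges only. The same test was run over 25437 regions, with limma 3.58.1 as an alternative. In stressed mice replicate numbers mark the same animal, per the library names; deviations of such pairs correlated at 0.0648, 0.0185 and 0.0689 over regions. In standard-reared mice they do not pair. P-values treat libraries as independent although 4 animals gave a library of each class. Alternatives were ranking by q, no flanks, shortened lists, a -log10 q of at least 5 and each library left out. Windows moved by 5 kb and ranking by fragments were added after seeing the data. Planned lists of glutamate-handling genes and cell markers, and genes of like pattern, need an annotation of mm39 and were not analysed here. Members and lists were chosen with earlier results of these data known. SciPy 1.17.1, pandas 2.3.3, NumPy 2.4.6 and Matplotlib 3.10.9 under Python 3.11.15, and R 4.3.3, were used.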

Additional observations from a re-analysis of the deposited data

Results flagged for a closer look

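In each class of 5 libraries, the number of peaks and the percentile of the strongest peak of each gene, and the fold of the region before Slc17a7, were searched for 1 library far from the rest. The search covered 14 groups, of which chance marks about 1 in 20, and 6 were marked. Groups in which most libraries are at 0 are marked by any single call.

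For Slc17a6, standard-reared activated replicate 1 stood apart with a strongest peak at percentile 59.7, against 0 to 9.55 in the other activated libraries. Standard-reared non-activated replicate 2 stood apart with 1 peak at percentile 7.26, against none in the other non-activated libraries. For Slc17a7, stressed non-activated replicate 1 had 7 peaks in the window, against 1 or 2 in the other non-activated libraries. That library also has the longest list, and its mean over 50 kb tiles was 0.933 peaks, against 0.130 to 0.269 in the other 4. For Slc17a8, stressed non-activated replicate 3 had 1 peak at percentile 50.9, against none in the other non-activated libraries.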

How the results depend on the processing

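None of the 15 gene comparisons passed the threshold under any setting tried, and none could have. In 5 against 5 libraries only Slc17a7 could reach the smallest possible p of the exact test, 0.00794, which alone does not pass adjustment over 15 tests. In the smaller comparisons the smallest possible p was 0.1 or 0.333. That no setting gave a call therefore says nothing on whether the groups differ. Leaving out each library gave, for Slc17a7, differences of -19.0 to -7.07 percentile points between activated and non-activated nuclei of all mice, -32.3 to -9.48 in stressed mice and -12.0 to 2.14 in standard-reared mice. For rearing they were -28.8 to -5.91 in activated and -4.50 to 1.81 in non-activated nuclei. For Slc17a6 the ranges were 0.935 to 15.9 in all mice, 0 to 4.77 in stressed and -3.63 to 56.0 in standard-reared mice, and -56.5 to 3.18 and -7.26 to 0 for rearing in activated and non-activated nuclei. For Slc17a8 they were -12.7 to 0 in all mice, -25.4 to 0 in stressed mice and 0 to 25.4 for rearing in non-activated nuclei, with 0 wherever stressed non-activated replicate 3, its only library with a peak, was left out.

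Shortening the lists to equal length moved the Slc17a7 difference to -31.9 in all mice, -40.2 in standard-reared mice and -22.7 for rearing in non-activated nuclei, and to -8.96 for rearing in activated nuclei. A -log10 q of at least 5 moved it to -29.1 in all, -37.4 in stressed and -16.6 in standard-reared mice. In stressed mice it was -13.8 when ranked by q and -7.36 by fragments. Its size thus depends on how peaks are ranked and cut. Without flanks, rearing in activated nuclei gave -41.1, a value of the second Slc17a7 region and not of the region before the gene. The Slc17a7 difference in standard-reared mice reversed to 2.87 when ranked by q, 18.4 without flanks and 9.66 when ranked by fragments over the genome-wide rate. Its rearing difference in non-activated nuclei reversed to 1.90 by q and 4.65 by fragments. Without flanks the region before the gene is outside the window; the cause of the other reversals was not tested. Each Slc17a6 difference became 0 in shortened lists and at a -log10 q of at least 5, since none of its peaks reaches that. Windows 5 kb higher took in a Slc17a8 peak of standard-reared activated replicate 1, giving 23.9 in standard-reared mice and -23.9 for rearing in activated nuclei, from 0. Over all regions limma called 2, and 0 with the animal as a replicate block. The exact test called 0, but its smallest possible p of 0.00794 leaves little room for a call over 25437 regions. With the replicate block in stressed mice, the differences of Slc17a6, Slc17a7 and Slc17a8 were 3.18, -21.1 and -17.0, with exact sign-flip p of 1, 0.25 and 1 (smallest possible 0.25), and no call changed. The sign-flip p of Slc17a6 and Slc17a8 was fixed in advance, as each had a peak in 1 stressed library.

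In the 4 shallow libraries a call needs few fragments and a missing call says little. Windows rest on positions known to 10 kb.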
